A study of Drosophila melanogaster and Drosophila arizonae and Drosophila mojavensis with 18 samples.

Results

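The 3 amylase genes of *D*. *melanogaster*, *Amy-p* (FBgn0000079), *Amy-d* (FBgn0000078) and *Amyrel* (FBgn0020506), and *tobi* (FBgn0261575) were followed in the larval RNA-Seq libraries of this species. These 4 genes were chosen by name from the 17239 genes of the deposited *D*. *melanogaster* table, and all 4 were among the 12287 genes with enough fragments to be tested. The series compares 3 species after 24 h on 3 diets, in 18 libraries of which the 6 of *D*. *melanogaster* are used here. Larvae of isofemale strains, whose stocks were all kept on banana-opuntia medium, entered the diets early in the third instar, 30 to a vial. They came from eggs laid in yeasted chambers. Sucrose per 200 ml of water was 8 g in HPLS (high protein, low sugar), 20 g in EPS (equal protein and sugar) and 32 g in LPHS (low protein, high sugar), while yeast, the source of protein, was 32 g, 20 g and 8 g. All diets also held cornmeal, which brings starch. Whole larvae were extracted, so that fewer cells of a type and less RNA per cell cannot be told apart. Each diet had 2 libraries, labelled S1 and S2. The study used 2 strains per species, but the labels do not say whether S1 and S2 are those strains, so strain, culture and library preparation cannot be told apart in a difference between S1 and S2. P-values measure only the spread between these libraries, which may be technical.

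Alpha-amylases cut starch and glycogen into maltose and short glucose chains, and maltases (alpha-glucosidases) then release glucose that the midgut takes up. In *D*. *melanogaster* the classical enzyme is secreted by the midgut and is encoded by a proximal and a distal copy, *Amy-p* and *Amy-d*, while *Amyrel* is a diverged amylase paralog. Amylase of fly larvae is known as an enzyme that dietary glucose represses. The gene *tobi* (target of brain insulin) encodes an alpha-glucosidase of another family. It was found as a gene that depends on the insulin-producing cells of the fly brain, and its expression is known to rise with dietary protein and to fall with dietary sugar.

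The deposited values are estimated fragment counts in units of a step particular to each library, between 0.639 and 1.28. Division by it gave totals of 13219689 to 32807690 fragments per library. After scaling between libraries by the TMM method the values are called normalized counts. The HPLS S2 library, the deepest, lists the larval serum protein genes *Lsp1beta*, *Lsp1gamma* and *Lsp2* at 0, so results are also given without it. In that order of genes, the other libraries held 398500 to 520800, 472100 to 551600 and 98650 to 348600 normalized counts. Of 7 markers of the salivary glands of late larvae, mostly glue genes, the summed normalized count ran from 4868 in EPS S1 to 304903 in HPLS S2, and all 3 S2 libraries were above all 3 S1 libraries. Of 12 midgut digestion markers all were expressed, and their sum ran from 271568 to 373582. The sum hides wider ranges of single markers, such as 3759 to 32160 for the lysozyme gene *LysB* and 15180 to 108100 for the serine protease gene *Jon66Ci*.

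*Amy-p* and *Amy-d* form an inverted pair on chromosome arm 2R of the BDGP6 assembly. *Amy-p* lies on the minus strand from 17118636 to 17120303 and *Amy-d* on the plus strand from 17124764 to 17126369, with 4460 bases between them. Each is a single exon that codes for 494 amino acids. *Amyrel* lies elsewhere on 2R, on the minus strand from 16651095 to 16652699. It has 2 exons and codes for 493 amino acids. *tobi* lies on 3R, on the minus strand from 25344761 to 25346921, with 2 exons and 657 amino acids. Its last exon overlaps the gene *rha* on the other strand by 78 bases, and the last exon of *Amyrel* overlaps *gprs* by 31 bases. The library kit does not mark strand, so fragments within those overlaps cannot be assigned to either gene. *rha* had a normalized count of 151 to 251 and *gprs* of 45.5 to 65.5 over the 6 libraries, well under the lowest values of *tobi* (1335) and *Amyrel* (488).

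Because the copies of the pair are near-identical, read pairs can match both. For the 4 genes all 24 deposited values, those of *Amy-p* and *Amy-d* included, were whole multiples of the step of their library within 0.01 steps. For *Amy-p* these were 2368, 1268 and 1205 fragments in HPLS, EPS and LPHS of S1 and 2983, 1243 and 622 in S2. For *Amy-d* they were 3533, 2294 and 2216 in S1 and 1365, 522 and 292 in S2. No value thus shows fragments divided in fractions between the copies. How pairs that match both copies were placed is not given in the sources used here, so the level of either copy alone is uncertain, and values of the summed pair are given beside them.

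All 4 genes were well detected, with 292 to 3533 fragments per library, and they differed little in level per length of exon. The median over the 6 libraries was 875 normalized counts per kilobase for *Amy-p*, 881 for *Amy-d*, 796 for *Amyrel* and 879 for *tobi*. Their ranges over the libraries overlapped almost entirely, so that these levels give no order. What set the genes apart was how far the libraries spread. Between its lowest and highest library *tobi* differed by 3.03-fold, *Amy-p* by 4.95-fold, *Amyrel* by 6.61-fold and *Amy-d* by 15.7-fold. The median over all tested genes was 1.66-fold, and 98.2% of them had a smaller range than *Amy-d*.

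**Figure D1:**
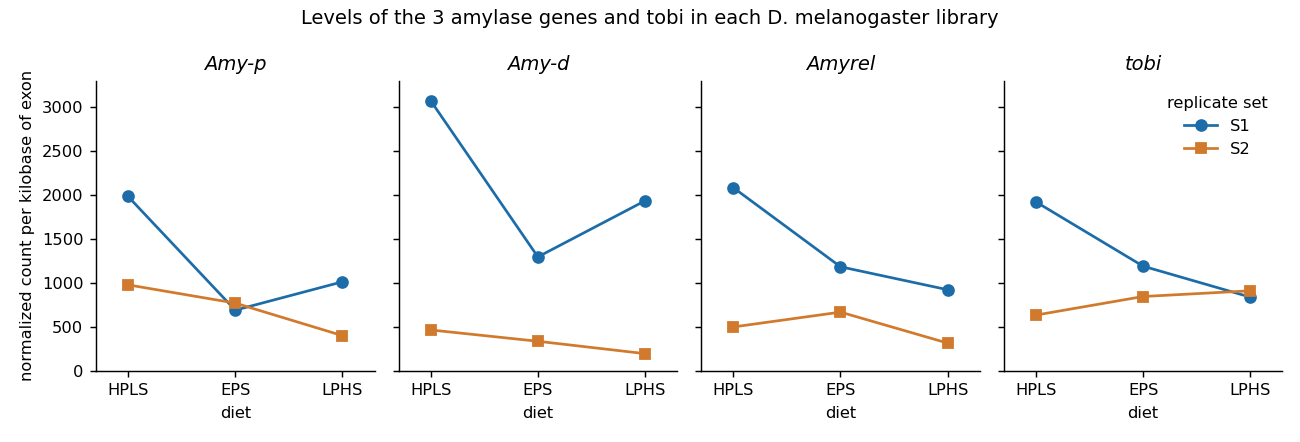
Normalized count per kilobase of exon of each gene (vertical axis, linear from 0) in the 3 diets (horizontal axis), with 1 point per library and a line joining the libraries of S1 (blue circles) or S2 (orange squares). The S1 line of *Amy-d* runs far above the S2 line, from 1297 to 3076 against 195 to 465, while the lines of *Amy-p* and *tobi* cross.

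The comparison of the extreme diets asks whether the genes of starch digestion and *tobi* respond to a day of more sugar and less protein. In the HPLS libraries of S1 and S2 the normalized count of *Amy-p* was 3311 and 1632, in EPS 1151 and 1286, and in LPHS 1691 and 668. The diet means were 2472 ± 1187, 1219 ± 94.9 and 1179 ± 724 (SD, n = 2). The LPHS value was under the HPLS value of the same set in both sets, but the highest LPHS library (S1) was just above the lowest HPLS library (S2). The log2 change in LPHS-HPLS was -1.13 (standard error 0.53, 95% interval -2.46 to 0.20), a 2.19-fold lower mean, with changes of -0.97 and -1.29 in S1 and S2. This interval, like the others given for diet comparisons, is from the fit without the replicate block. That fit counts differences between S1 and S2 as spread, and the standard error was 0.35 with the block. With an unadjusted p of 0.0816 and an adjusted p of 1 from limma, *Amy-p* did not pass the test.

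*Amy-d* had a normalized count of 4940 and 747 in HPLS, 2083 and 540 in EPS, and 3110 and 313 in LPHS, in S1 and S2. Each diet thus held a high S1 and a low S2 library, and the diets overlapped throughout. Within the sets LPHS was lower than HPLS, with log2 changes of -0.67 and -1.25. The mean change of -0.96 had a standard error of 1.42 and an adjusted p of 1 from limma, and its 95% interval, from the fit without the replicate block, ran from -4.51 to 2.60.

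*Amyrel* had a normalized count of 3231 and 773 in HPLS, 1835 and 1035 in EPS, and 1430 and 488 in LPHS, in S1 and S2. LPHS was the lowest diet in each set, and the ranges of the diets overlapped. Its log2 change in LPHS-HPLS was -0.92 (standard error 0.83, 95% interval -2.99 to 1.15, adjusted p = 1 from limma), with -1.18 and -0.66 in the sets. In each set the LPHS value of *Amy-p*, *Amy-d* and *Amyrel* was under the HPLS value, though none of the 3 passed the test. Of all tested genes, 28.0% were lower in both sets, and 1.38, 1.86 and 1.94% had a lower mean change than *Amy-p*, *Amy-d* and *Amyrel*. The median change over all tested genes was -0.01.

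*tobi* had opposite orders of the diets in the sets. Its normalized count went from 4048 in HPLS through 2507 in EPS to 1765 in LPHS in S1, and went from 1335 through 1780 to 1917 in S2. The LPHS libraries lay close together, and the HPLS libraries held both the highest and the lowest value of the 6. In LPHS-HPLS the changes were -1.20 in S1 and 0.52 in S2, with a mean of -0.34 (standard error 0.53, 95% interval -1.66 to 0.98, adjusted p = 1 from limma). Whether the diet acted differently in the sets could not be tested, since each set has 1 library per diet.

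No gene passed the threshold in LPHS-HPLS, the 4 genes included: 0 of 12287 tested genes (0%) had an adjusted p of at most 0.05 in limma, while 181 reached an unadjusted p under 0.05. On the fragments, edgeR's quasi-likelihood test also called 0, with 185 under that unadjusted limit, and DESeq2 called 14 (0.114%), none of them among the 4 genes. In the blocked fit, which has the replicate number as a term, the log2 changes were the same, with standard errors of 0.35 for *Amy-p*, 0.31 for *Amy-d* and 0.29 for *Amyrel*. The unadjusted p was 0.0181, 0.0213 and 0.0187 in that order, and 949 of the 12287 tested genes were under 0.05 in that fit. The adjusted p of 0.527, 0.562 and 0.533 from limma missed the threshold, and 0 genes were called. The direction held for *Amy-p* without any 1 library, with changes from -1.78 to -0.46. Without the HPLS S1 library the change was 0.42 for *Amy-d*, 0.13 for *Amyrel* and 0.48 for *tobi*, and without the LPHS S2 library it was 0.69 for *Amy-d*. Without the HPLS S2 library the changes were -1.64, -2.32, -1.95 and -1.14 for *Amy-p*, *Amy-d*, *Amyrel* and *tobi*. The glue genes were also lower in LPHS than in HPLS, with a median log2 change of -1.36 over 7 genes, of which 0 were called, and of the 12 midgut digestion markers 9 were higher and 3 lower, with a median of 0.45 and 0 called. The part of either in these values was not tested.

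**Figure D2:**
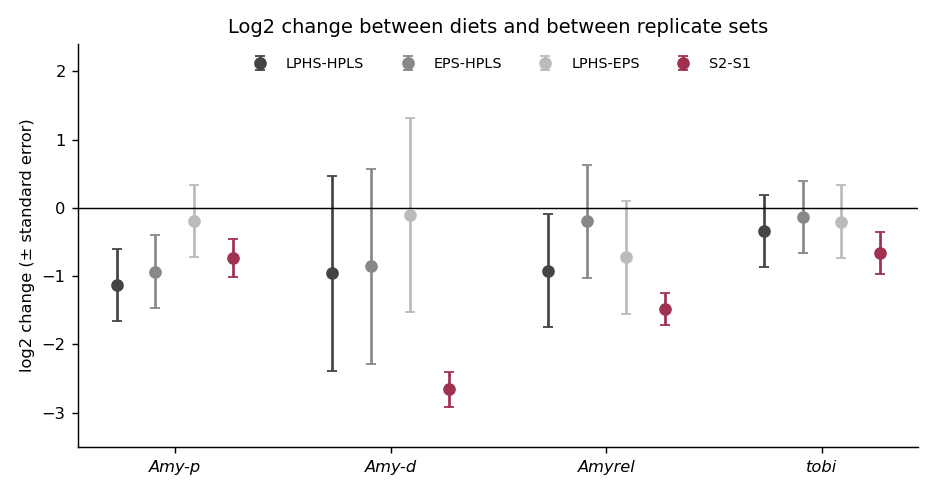
Log2 change (points) with its standard error (bars) of each gene in the 3 comparisons of diets, in greys, and in S2-S1, in red. All 12 diet values, from -1.13 to -0.10, lie under 0, with wide bars from the fit without the replicate block. The 3 comparisons share the same libraries, so the 12 values are not independent, and several change sign without 1 library. The S2-S1 value of *Amy-d*, -2.66, lies farthest from 0.

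The EPS diet lies between the others in composition. The diet means of *Amy-p* and *Amyrel* fell in that order, those of *Amyrel* being 2002, 1435 and 959 in HPLS, EPS and LPHS. The mean of *Amy-d* was lowest in EPS, and no amylase gene fell in that order in both sets. In EPS-HPLS, *Amy-p* was lower in both sets, with log2 changes of -1.52 and -0.34, and its EPS libraries did not overlap its HPLS libraries. Of all tested genes, 6.67% were lower without overlap in that comparison, and the adjusted p of *Amy-p* was 1 from limma. *Amy-d* changed by -1.25 and -0.47 in S1 and S2, and 25.5% of the tested genes were, like *Amy-p* and *Amy-d*, lower in both sets. The salivary gland markers were lower in EPS too, with a median of -1.87 over the 7 and 0 called. *Amyrel* changed by -0.82 and 0.42, and *tobi* by -0.69 and 0.42, so these 2 went opposite ways in the sets. In LPHS-EPS, *Amyrel* was lower in both sets, at -0.36 and -1.08, as were 19.5% of the tested genes, while *Amy-p* changed by 0.55 and -0.94 and *Amy-d* by 0.58 and -0.78. *tobi* changed by -0.51 and 0.11. In these comparisons 0 of 12287 genes were called by limma (0%), with 43 and 23 at an unadjusted p under 0.05 in EPS-HPLS and LPHS-EPS, and 0 by the quasi-likelihood test, with 49 and 25. The mean change of *Amy-p* in EPS-HPLS was -0.93 (95% interval -2.26 to 0.39), and it was negative without any 1 library. Those of *Amy-d*, *Amyrel* and *tobi*, which were -0.86, -0.20 and -0.14, became 0.52, 0.84 and 0.67 without the HPLS S1 library and 0.12, 0.22 and 0.11 without the EPS S2 library. Without the HPLS S2 library the changes in EPS-HPLS were -1.44, -2.22, -1.23 and -0.94 for *Amy-p*, *Amy-d*, *Amyrel* and *tobi*. In LPHS-EPS the mean changes of *Amy-p*, *Amy-d*, *Amyrel* and *tobi* were -0.20, -0.10, -0.72 and -0.20. Without the EPS S1 library they were 0.89 for *Amy-d* and 0.071 for *tobi*, and without the LPHS S2 library 0.46 for *Amy-p*, 1.54 for *Amy-d* and 0.042 for *Amyrel*.

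The distal copy and *Amyrel* were lower in S2 than in S1, and *Amy-p* and *tobi* did not pass the test. *Amy-d* was lower in S2 on each diet, the HPLS pair differing by -2.72 on the log2 scale, the EPS pair by -1.95 and the LPHS pair by -3.31. Its S1 libraries held 2083 to 4940 normalized counts and its S2 libraries 313 to 747, without overlap, with means of 3378 ± 1447 and 533 ± 217 (SD, n = 3). With the diet in the model the log2 change in S2-S1 was -2.66 (standard error 0.25, adjusted p = 0.00446 from limma), a 6.32-fold lower level. *Amyrel* was lower in S2 too, with changes of -2.06, -0.83 and -1.55 in HPLS, EPS and LPHS, with 1430 to 3231 normalized counts in S1 and 488 to 1035 in S2. Its means were 2166 ± 945 and 766 ± 274 (SD, n = 3). It changed by -1.48 (standard error 0.23, adjusted p = 0.0167, limma), a 2.79-fold lower level. *Amy-d* and *Amyrel* were thus called in S2-S1, where limma called 1922 of 12287 genes (15.6%), with 8.57% lower and 7.07% higher in S2. A lower value in S2 on all 3 diets was found for 28.3% of the tested genes. Groups without overlap and lower in S2 were found for 21.9% of the tested genes. Of all tested genes, 57 had a lower mean change than *Amy-d*, and 284 a lower one than *Amyrel*. Leaving out 1 library moved the number of called genes to between 599 and 3602. *Amy-d* and *Amyrel* were called without any 1 library, with changes from -3.02 to -2.34 for *Amy-d* and from -1.81 to -1.18 for *Amyrel*.

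*Amy-p* changed between the sets by -1.02 in HPLS and -1.34 in LPHS and by 0.16 in EPS, so that its sets overlapped. The mean change of -0.73 had a standard error of 0.29 and an adjusted p of 0.125 from limma, with a 95% interval of -1.43 to -0.03. *tobi* changed by -1.60 in HPLS, -0.49 in EPS and 0.12 in LPHS, with a mean of -0.66 (standard error 0.31, 95% interval -1.42 to 0.10, adjusted p = 0.186, limma). Whether either gene passed depended on the pair of libraries of 1 diet. With the diet in the model, leaving out either library of a diet takes the whole pair out of the S2-S1 change. *Amy-p* was called, at changes of -1.19 and -1.18 and adjusted p of 0.0245 and 0.0217, without the EPS S1 or the EPS S2 library, and *tobi*, at -1.07 and -1.06 and adjusted p of 0.0271 and 0.0242, without the LPHS S1 or the LPHS S2 library. Without the HPLS S2 library *tobi* changed by -0.18 and *Amy-p* by -0.59.

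The balance between the fragments counted for *Amy-p* and *Amy-d* differed more between the sets than between the diets of a set. Of the fragments of the pair, *Amy-d* took 59.9% in HPLS S1 (exact 95% interval 58.6 to 61.1%, of 5901 fragments), 64.4% in EPS S1 (62.8 to 66.0%, of 3562) and 64.8% in LPHS S1 (63.1 to 66.4%, of 3421). In S2 it took 31.4% in HPLS (30.02 to 32.8%, of 4348), 29.6% in EPS (27.5 to 31.8%, of 1765) and 31.9% in LPHS (28.9 to 35.1%, of 914). These intervals cover counting error only. More of the pair's fragments were thus counted for *Amy-d* in every S1 library and for *Amy-p* in every S2 library. How read pairs that match both copies were placed is not known, so these shares are of counted fragments and the level of either copy is uncertain. The mean share was 63.0 ± 2.73% (SD, n = 3) in S1 and 30.97 ± 1.24% (SD, n = 3) in S2, a difference of -32.0 percentage points. The exact permutation test gave a two-sided p of 0.1, the smallest that 3 against 3 libraries allow. A share within a library does not depend on the scaling between libraries. With the pair summed as 1 gene, the normalized counts were 8251, 3235 and 4800 in HPLS, EPS and LPHS of S1 and 2380, 1826 and 981 in S2. The pair was called in S2-S1, by -1.64 on the log2 scale (standard error 0.27, adjusted p = 0.0186, limma). In LPHS-HPLS it changed by -1.03 (standard error 0.92, adjusted p = 1, limma).

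**Figure D3:**
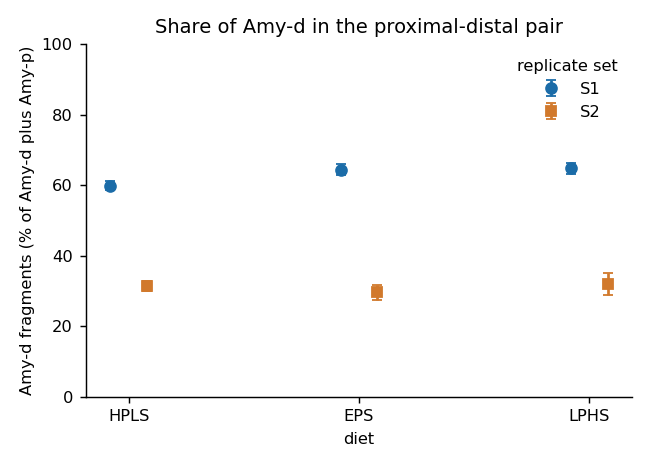
*Amy-d* fragments as a percent of the fragments of *Amy-d* and *Amy-p* together (vertical axis, starting at 0) in each library, by diet, with exact 95% intervals that cover counting error only. The S1 libraries (blue circles) sit between 59.9 and 64.8%, and the S2 libraries (orange squares) between 29.6 and 31.9%.

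Markers of the salivary gland moved with the same split of libraries. Of the 7, 6 were called as higher in S2, where 7.07% of all tested genes were called higher and 8.57% lower, with a median log2 change of 3.36 over the 7, against 0.01 over all tested genes. Their part in the lower *Amy-d* and *Amyrel* was not tested. Of the midgut digestion markers 3 were called higher and 3 lower in S2, with a median of -0.03, against 15.6% of all tested genes called in either direction. Among them the lysozyme gene *LysB* changed by 2.56 (adjusted p = 0.00129, limma) and the serine protease gene *Jon66Ci* by -1.61 (0.00944). Of 7 fat body markers only *Fbp2* was called, higher in S2, while by sign 4 were higher and 3 lower. The 3 lower, *Lsp1beta*, *Lsp1gamma* and *Lsp2*, were at 0 in HPLS S2. Their standard errors of 3.646, 3.695 and 3.696 left little room for a call. Of 5 muscle markers 1 was called, lower in S2, while all 5 had changes under 0, with a median of -0.60. Of 6 markers of eggs and testes, 3 were tested and only the yolk protein gene *Yp3* was called, higher in S2. By sign 1 of the 3 was higher and 2 were lower, with a median of -0.58. The yolk protein gene *Yp1* and the eggshell gene *Cp36* were at or near 0 in all libraries. Amylase is made in the midgut and *tobi* in gut and fat body, and in whole larvae the tissues were not separated.

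The genes that act after amylase were measured through 10 maltase genes, all tested. In LPHS-HPLS, 0 of the 10 were called, with 5 higher and 5 lower and a median log2 change of -0.02. The values farthest from 0 were those of *Mal-A7* (1.07, standard error 0.88), *Mal-B1* (-0.71, standard error 0.63) and *Mal-A1* (0.68, standard error 0.55). *Mal-B1* was low, with 5.61 to 15.4 normalized counts over the libraries. *Mal-A1* fell from 2279 in HPLS to 1727 in LPHS in S1 and rose from 784 to 2644 in S2. In S2-S1, 4 of the 10 were called lower and 1 higher, against 8.57% of all tested genes called lower and 7.07% called higher. By sign alone 5 were higher and 5 lower. The log2 change was -2.35 for *Mal-A8* (adjusted p = 0.00123 from limma), -1.69 for *Mal-A3* (0.00677), -1.65 for *Mal-A7* (0.00363), -1.33 for *Mal-A6* (0.0138) and 1.06 for *Mal-B2* (0.0159). *Mal-A8* held 1667, 2717 and 2167 normalized counts in S1 and 288, 500 and 510 in S2, without overlap, as *Amy-d* did. In that direction 21.9% of all tested genes had no overlap. The median change over the 10 was -0.24, against 0.01 over all tested genes.

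**Figure D4:**
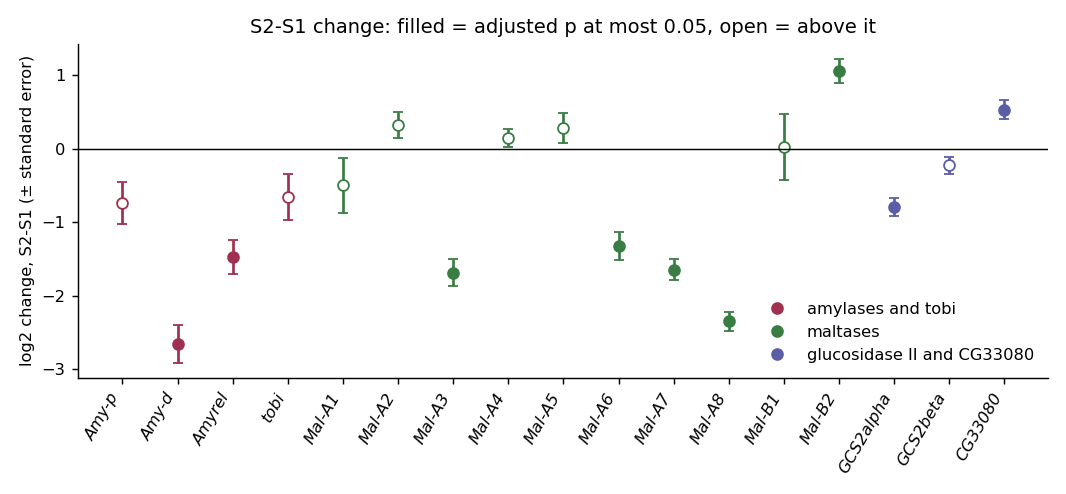
Log2 change in S2-S1 (vertical axis, with standard error) of the amylases and *tobi* (red), the 10 maltases (green), and the subunits of glucosidase II with CG33080 (blue), where filled points have an adjusted p of at most 0.05. The lowest value is that of *Amy-d* (-2.66), next to it that of *Mal-A8* (-2.35), and *Mal-B2* is highest (1.06).

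For *tobi* the genes set beside it were *GCS2alpha*, the catalytic subunit of the glucosidase II that trims sugar chains in the endoplasmic reticulum, its partner subunit *GCS2beta*, and CG33080. In LPHS-HPLS they changed by 0.14, -0.04 and 0.04, and 0 of the 3 were called. In S2-S1, the log2 change was -0.79 for *GCS2alpha* (adjusted p = 0.017 from limma), 0.53 for CG33080 (0.0476) and -0.22 for *GCS2beta* (0.221).

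Of 18 genes of insulin, adipokinetic hormone and sugar signalling, 17 could be matched and all 17 were tested. In LPHS-HPLS 0 were called, 7 were higher and 10 lower, and the median was -0.09. *InR*, the insulin receptor gene, is not analysed here. The change farthest from 0 was that of *sug* (0.98, standard error 0.34, adjusted p = 1 from limma), a zinc finger factor of the response to sugar, with 1109 and 581 normalized counts in HPLS and 1559 and 1612 in LPHS of S1 and S2. *Thor*, an inhibitor of translation under insulin control, changed by -0.45 and *cbt*, a sugar-responsive transcription factor, by 0.43. *Thor* went opposite ways in the sets, from 2250 in HPLS to 2653 in LPHS in S1 and from 5504 to 2498 in S2. *cbt* went from 1250 to 1246 in S1 and from 890 to 1612 in S2, so its mean change came from S2. In S2-S1, 3 of the 17 were called higher and 0 lower, and by sign alone 14 were higher and 3 lower. Of all tested genes, 7.07% were called higher and 15.6% in either direction. The number called among the 17 was near the share for either direction, but all 3 were higher. *Akh*, the adipokinetic hormone that acts like glucagon, rose by 1.61 (adjusted p = 0.0116 from limma) and *Ilp6*, an insulin-like peptide of the fat body, by 1.28 (0.0447). *daw*, an activin-type ligand known to act in the glucose repression of digestive enzymes, rose by 0.58 (0.0391). *Thor* changed by 0.90 (0.0966). The median over the 17 was 0.32.

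Over the 6 libraries *Amy-d* and *Amyrel* were the most alike of the 4 genes, with a Pearson's r on the log2 scale of 0.925. It was 0.796 between *Amy-p* and *Amy-d* and 0.804 between *Amy-p* and *Amyrel*. With *tobi* it was 0.507 for *Amy-p*, 0.643 for *Amy-d* and 0.786 for *Amyrel*. These values describe 6 libraries that share sets and diets. Among all tested genes the patterns nearest to *Amy-d* were those of the zinc transporter gene *ZnT35C* (r = 0.999), CG14079 (0.997) and CG8252 (0.997), and 197 genes had an r above 0.95. *ZnT35C* held 515, 369 and 448 normalized counts in S1 and 250, 231 and 187 in S2. Nearest to *Amyrel* were the ferritin light chain gene *Fer2LCH* (0.996), *CNT1* (0.996) and CG5653 (0.995), with 60 genes above 0.95. Nearest to *Amy-p* were CG31406 (0.991), CG6333 (0.983) and CG9646 (0.980), with 12 genes above 0.95. Nearest to *tobi* were CG15533 (0.982), CG31089 (0.976) and *ACXB* (0.973), with 17 above 0.95. CG15533 went from 477 in HPLS through 218 to 66.0 in LPHS in S1 and went from 49.3 through 70.3 to 102 in S2, the same crossing of the sets as in *tobi*. The nearest genes were picked by their likeness in these same libraries, so a shared pattern follows from the choice and gives no separate support.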

How the data were processed

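Poly(A) RNA of whole larvae was sequenced as read pairs. The authors mapped the pairs with TopHat2 to the FlyBase genome (r6.04), ran cuffdiff2 at default settings, and deposited estimated counts of fragments per gene, scaled by 1 step per library. The step was searched for between 0.5 and 1.5 and divided out (96.5 to 97.1% of values above 0 were then whole), and values were rounded for count tests. Totals of 13219689 to 32807690 fragments limit the precision of low genes, and 2 libraries per diet that of the others.

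Identifiers were matched to symbols (16939 of 17239), and positions and exon lengths taken from the Ensembl annotation (release 115, BDGP6). Genes were kept by filterByExpr of edgeR (4.0.16, minimum count 10). Deposited values were scaled by TMM, and limma (3.58.1, variance trend) was fitted to log2(value + 1), a scale that understates changes of low genes, with the diet, or for S2-S1 the diet and the replicate number, in the model. Benjamini-Hochberg adjusted p of at most 0.05 over all tested genes was called. The limma test, in LPHS-HPLS and S2-S1, and the search for the step were tried on simulated data, with the outcome not reported here. Alternatives were edgeR's quasi-likelihood test, DESeq2 (1.42.0), other scalings, filters and pseudocounts, the replicate block and leaving out libraries. R was 4.3.3 and Python 3.11.15.

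Replicate numbers come from the labels. Deviations from the diet means correlated across genes between libraries of the same number, at 0.553 to 0.708 over the 3 pairs of diets, so the numbers were taken to pair the libraries. The main fit of the diets leaves this pairing out, and the replicate block holds it. Named genes were the 4 genes, up to 3 genes per list with the largest change in LPHS-HPLS and S2-S1 and those called, and the 3 nearest patterns per gene. *LysB*, *Jon66Ci*, *Fbp2*, *Yp1*, *Yp3*, *Cp36* and the *Lsp* genes were named after their values were seen. The genes and lists were chosen with earlier results of these data known. The other species were not analysed here.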

Additional observations from a re-analysis of the deposited data

How the results depend on the processing

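Other scalings (RLE or library totals), no filter, a pseudocount of 0.5 or 5, edgeR, DESeq2 and the replicate block left the direction of the 4 genes as it was, except that *Amy-d* in LPHS-EPS changed by 0.38 in both edgeR's quasi-likelihood test and DESeq2. In S2-S1, where the replicate number is itself the contrast and no block was fitted, *Amy-d* and *Amyrel* were called under each of the others and without the diet term. DESeq2 called 14 genes in LPHS-HPLS where limma called 0. With the replicate number as a block limma called 0 genes in the 3 diet comparisons, the lowest adjusted p being 0.0968 (LPHS-HPLS), and no call of the 4 genes changed. Without the diet term it called 2739 in S2-S1. In S2-S1 *Amy-p*, summed with *Amy-d*, reached a change of -1.64.

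Without 1 library each in turn, where the lone library of a diet is taken to vary like the others, 0 to 4 genes were called in LPHS-HPLS, 0 to 4 in EPS-HPLS, 0 to 1 in LPHS-EPS and 599 (without HPLS S1) to 3602 (without LPHS S2) in S2-S1. In LPHS-HPLS the log2 change ran from -1.78 to -0.46 for *Amy-p*, -2.60 to 0.69 for *Amy-d*, -1.95 to 0.13 for *Amyrel* and -1.14 to 0.48 for *tobi*. In EPS-HPLS it ran from -1.44 to -0.41, -2.22 to 0.52, -1.23 to 0.84 and -0.94 to 0.67 in the same order. In LPHS-EPS it ran from -0.84 to 0.46, -1.74 to 1.54, -1.47 to 0.042 and -0.44 to 0.071. In S2-S1 it ran from -1.19 to -0.44 for *Amy-p*, -3.02 to -2.34 for *Amy-d*, -1.81 to -1.18 for *Amyrel* and -1.07 to -0.18 for *tobi*. The cause was not tested. In S2-S1 the lone library of a diet only sets the term of that diet, so leaving out either library of a diet drops the same pair.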

Other observations

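Neighbours of the pair of amylase genes ranged from near 0 to over the level of *Amy-d* in S2. *Spn53F* and the antisense RNA CR45272, which lie in the 4460 bases between the copies, held at most 0.908 and 1.07 normalized counts in any library. CG15605, which ends 40 bases from *Amy-d* on the other strand, held 29.4, 24.5 and 30.9 normalized counts in HPLS, EPS and LPHS of S1 and 12.0, 9.31 and 7.51 in S2, lower in every S2 than in every S1 library. That was so for 21.9% of all tested genes. The library kit does not mark strand, and whether any fragments counted for CG15605 came from *Amy-d* was not tested. *Cda9*, 2110 bases beyond *Amy-d*, held 1323 to 1824 in S1 and 1569 to 1606 in S2, so its sets overlapped. On the *Amy-p* side, CG15611, 4275 bases away, held 508 to 594 in S1 and 685 to 729 in S2, the opposite direction to CG15605. These neighbours were singled out by position after the values of the 4 genes were seen, and no test was made on them.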
